A study of Mus musculus with 12 samples.

Results

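The nuclear-encoded genes of the mitochondrial respiratory chain and ATP synthase were followed across 12 RNA sequencing libraries of mouse small intestine. Members were the rows of the deposited table whose names begin with Ndufa, Ndufb, Ndufc, Ndufs or Ndufv and a number, Sdha to Sdhd, Uqcr, Cox4 to Cox8 or Atp5, without named pseudogenes. Of 55484 genes, 89 carried such a name and 82 reached 1 FPKM (fragments per kilobase of transcript and library depth, a level corrected for gene length and sequencing depth) in at least 3 libraries. These were 35 genes of complex I, 4 of complex II, 8 of complex III, 16 of complex IV and 18 of complex V, plus Cox6c2, which GENCODE M21 lists as a processed pseudogene. Cox6a2, Cox7b2, Cox8b, Cox8c, Ndufa11b, Ndufb4c and Ndufs6b stayed below the filter. Cox7b2 and Cox8c were listed at 0 in all 12 libraries.

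The study set an untreated wild type group (Control) against mice given melphalan, an alkylating chemotherapy drug that crosslinks DNA, alone (Melphalan) or together with mesenchymal stem cells (MSC). The series title describes these cells as derived from human umbilical cord. The combined groups are labelled Mel+MSC and MSC+Mel, and each of the 4 groups holds 3 libraries, called here by group and number. Strain, age, sex, dose, time, route and the meaning of the order of the 2 agents in the names are not given in the sources used here, nor whether the libraries of a group came from separate mice, so p-values measure only the spread between these libraries.

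The respiratory chain passes electrons from NADH (complex I) and succinate (complex II) through ubiquinone to complex III, cytochrome c and complex IV, which reduces oxygen. Complexes I, III and IV pump protons across the inner mitochondrial membrane, and complex V, the ATP synthase, uses the return flow to make ATP. Most subunits are encoded in the nucleus and a few in mitochondrial DNA, and absorptive enterocytes of the small intestine depend on this ATP for nutrient and ion transport.

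Nuclear respiratory genes are known to share promoter elements, among them sites for the transcription factors NRF1, GABP (an ETS factor), YY1 and ERR. RefSeq promoter windows (build GRCm38.p6, 250 bases before to 50 after a start) were found for 67 of the 82 members. Both strands were searched for exact letters, and windows of 1 gene were pooled. The NRF1 letters GCGCNNGCGC occurred in 27.3% of 66 member genes beside 7.0% of 27025 genes with a window, and AAGATGGCG (YY1) in 10.6% beside 1.64%. CCGGAAGT (GABP/ETS) occurred in 7.58% beside 4.31%, and TCAAGGTCA (ERR) in 3.03% beside 0.466%. A match is a description of the letters and not evidence of binding. The 150 bases before the start of 4 genes are printed 5′ to 3′ on the gene's strand. Atp5k had the widest range between libraries, Cox6a1, Uqcrh and Atp5b had the highest mean level in complexes IV, III and V, and capitals mark a motif match. They lie at chr5:108434400-108434549 (Atp5k, minus strand), chr5:115348959-115349108 (Cox6a1, minus strand), chr4:116075071-116075220 (Uqcrh, minus strand) and chr10:128083157-128083306 (Atp5b, plus strand).
Atp5k: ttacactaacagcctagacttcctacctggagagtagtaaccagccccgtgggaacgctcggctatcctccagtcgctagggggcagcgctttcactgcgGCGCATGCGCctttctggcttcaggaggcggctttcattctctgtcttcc
Cox6a1: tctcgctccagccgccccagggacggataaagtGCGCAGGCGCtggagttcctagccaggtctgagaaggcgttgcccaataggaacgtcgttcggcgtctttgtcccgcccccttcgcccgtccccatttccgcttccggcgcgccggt
Uqcrh: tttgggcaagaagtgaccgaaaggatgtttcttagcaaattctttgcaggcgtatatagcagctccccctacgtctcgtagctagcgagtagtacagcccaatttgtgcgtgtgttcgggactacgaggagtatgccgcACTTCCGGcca
Atp5b: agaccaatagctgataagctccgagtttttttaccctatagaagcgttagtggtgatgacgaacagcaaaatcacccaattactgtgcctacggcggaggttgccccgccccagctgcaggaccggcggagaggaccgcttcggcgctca
The capitals in Atp5k and Cox6a1 match the NRF1 letters, and those in Uqcrh are the GABP/ETS letters on the other strand. The Atp5b stretch held none of the 4 motifs. The window of Cox6a1 held a further NRF1 match upstream of the printed stretch. The FPKM of Atp5k varied 98.9-fold between libraries, that of Cox6a1 2.85-fold, that of Uqcrh 5.85-fold and that of Atp5b 2.09-fold. Whether a motif goes with the range between libraries was not tested.

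The table holds no counts, so the depth of the libraries is unknown. FPKM sums per library ran from 516851 to 796980, and 12847 genes passed the filter and were tested. All 10 enterocyte markers passed it (Alpi, Sis, Fabp1, Fabp2, Apoa1, Apoa4, Vil1, Anpep, Mgam and Slc5a1), with sums of 11900 FPKM in Mel+MSC 3 to 68900 in Melphalan 3. Libraries 2 of Melphalan and 3 of Mel+MSC stood apart. Melphalan 2 had B cell markers summing to 479 FPKM beside 0.898 to 56.9 elsewhere, and macrophage markers at 250 beside 15.7 to 91.6. Mel+MSC 3 had the lowest value of 51 of the 82 members, and Melphalan 2 of 20. Results that rest on Mel+MSC 3 are given with and without it.

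The members were mostly abundant transcripts, and many but not all of them varied together between libraries. Their mean level on the log2(FPKM + 1) scale was 7.26, 7.57 and 7.89 in Control, 7.87, 7.48 and 8.14 in Melphalan, 8.38, 8.07 and 6.75 in Mel+MSC, and 7.32, 7.21 and 7.17 in MSC+Mel. The MSC+Mel libraries lay close to each other and below all Melphalan libraries, whereas Mel+MSC held both the highest and the lowest library of the study. The spread between libraries of a group was 0.49 (pooled SD), which is wide beside most group differences. It pools groups of unlike spread, as Mel+MSC ran from 6.75 to 8.38 and MSC+Mel from 7.17 to 7.32. The pooled value is thus widened by Mel+MSC and is too wide for MSC+Mel. By complex the pooled spread was 0.49 in complex I, 0.31 in complex II, 0.57 in complex III, 0.58 in complex IV and 0.50 in complex V. Mel+MSC 1 had the highest value of 65 members, while 2 members, among them Atp5a1 (1843 FPKM), were highest in Mel+MSC 3. The plot of complex means by library shows that complex II alone did not have its lowest value in Mel+MSC 3.

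**Figure D1:**
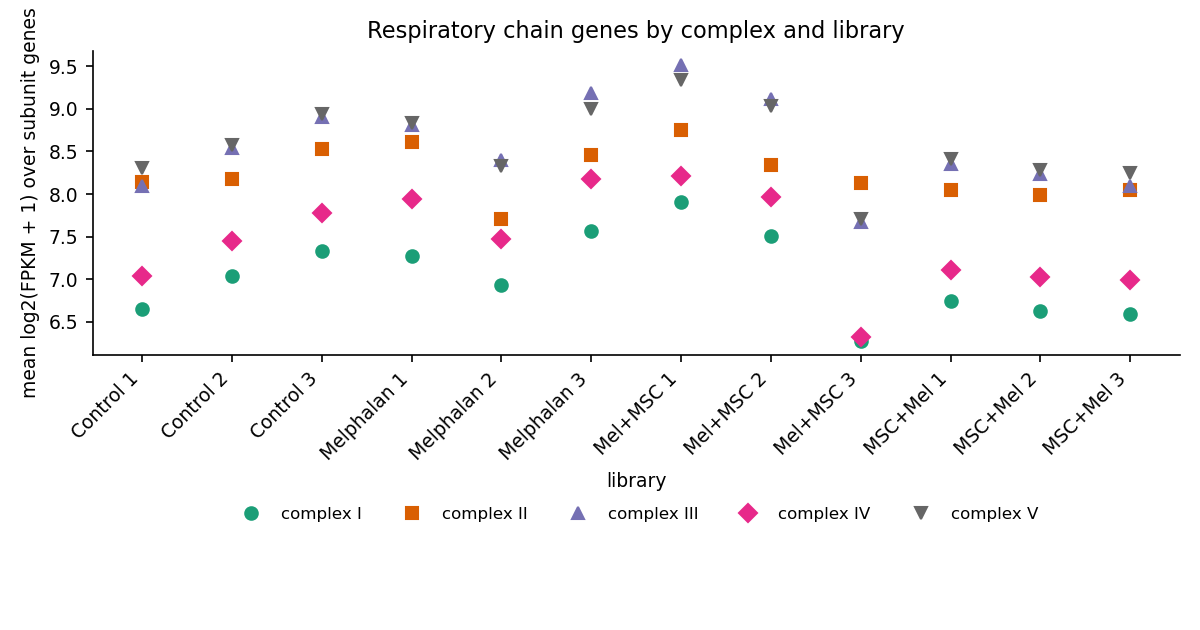
Mean log2(FPKM + 1) over the subunit genes of each complex (vertical axis) in the 12 libraries (horizontal axis), 1 symbol per complex. Complexes I, III, IV and V were lowest in Mel+MSC 3 and highest in Mel+MSC 1, while complex II was lowest in Melphalan 2 (7.71).

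Changes were fitted with limma on log2(FPKM + 1) over all 12847 genes, a scale that understates the change of low genes, with Benjamini-Hochberg adjustment over those genes. A gene was called at an adjusted p under 0.05. limma called 0 of the 82 members in each of the 6 comparisons, while 2 to 13 members had an unadjusted p under 0.05. In the alternatives the count of called members was above 0 for 3 comparisons, and those values stand beside each comparison.

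Between Melphalan and Control, limma called 0 members beside 1.33% of all genes tested. When libraries were blocked by number it called 0 members too, and 73 genes in all where the fit without the block called 171. The members' median change was 0.23 beside 0.03 for all genes, with 57 above 0 (69.5%) beside 52.4% of all genes. An unadjusted p under 0.05 was found for 2 members (2.44%) beside 18.2% of all genes. With quantile normalization the median was 0.01, and with 1 library left out at a time it ran from 0.05 (without Control 1) to 0.45 (without Melphalan 2). Values of the 3 libraries did not overlap between the groups for 4 members that were higher and 4 that were lower (4.88% each), beside 8.82% and 10.7% of all genes. Complex III had the highest median of the complexes (0.40) and complex II lay at -0.02, while complex V lay at 0.12, or at -0.04 with quantile normalization and at -0.00 after centring on transcript length. Enterocyte markers summed to 14200 to 28300 FPKM in Control and 32900 to 68900 in Melphalan. Markers of proliferating crypt cells, of which 7 of 8 were tested, summed to 211 to 616 and 48.4 to 91.2. limma called 5 of these 7 crypt cell markers lower beside 0.833% of all genes, and 6 lay lower without overlap beside 10.7%. All 10 enterocyte markers had a change above 0, and 4 lay higher without overlap beside 8.82% of all genes, with 0 called. Red cell markers, of which 4 of 5 were tested, summed to 27.5 to 113 FPKM in Control and 0 to 13.7 in Melphalan. All 4 lay lower without overlap, and limma called 2 of them lower beside 0.833% of all genes. In bulk tissue fewer cells of a type and less RNA per cell cannot be told apart, and the part of these shifts in the members' values was not tested.

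Ndufb2, an accessory subunit of the membrane arm of complex I (chromosome 6, 39592574 to 39603382, plus strand), had the smallest p of this comparison among the members. The level of Ndufb2 was 171, 151 and 162 FPKM in Control, 82.1, 77.1 and 110.1 in Melphalan, 110, 103 and 82.6 in Mel+MSC and 117, 88.9 and 118 in MSC+Mel. Every Control library lay above every other library. The fitted change was -0.85 ± 0.20 (SE, limma adjusted p = 0.0649) by limma, so it missed the threshold. limma called Ndufb2 lower with quantile normalization (adjusted p = 0.0176) and with Mel+MSC 3 left out of the shared spread (adjusted p = 0.0387). In these fits it called 0.88% and 1.58% of all genes lower. After length centring limma also called Ndufb2 lower (adjusted p = 0.0231), beside 2.5% of the 11980 genes with a transcript length. In Mel+MSC against Control its change was -0.71 ± 0.20 (SE, limma adjusted p = 0.688), with no overlap between the groups. Ndufa2, an accessory subunit of the matrix arm of complex I, had a change of the opposite sign, 1.18 ± 0.56 (SE, limma adjusted p = 0.29). Control libraries had 70.8, 95.8 and 127 FPKM of Ndufa2, Melphalan libraries 171, 215 and 278, Mel+MSC libraries 331, 194 and 45.6 and MSC+Mel libraries 61.05, 51.2 and 55.8. Melphalan lay above both Control and MSC+Mel without overlap, and Mel+MSC spanned the whole range.

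Complex I has core subunits, which carry out the electron transfer, and accessory subunits. Among the core subunits Ndufs1, Ndufv1 and Ndufv2 belong to the module that takes electrons from NADH, and Ndufs3, Ndufs7 and Ndufs8 to the module that binds ubiquinone. Ndufs1, which carries iron-sulfur clusters, was among the steadiest members. Ndufs1 stood at 76.8, 70.96 and 74.5 FPKM in the Control libraries, 74.8, 44.9 and 76.2 in Melphalan, 95.6, 78.8 and 91.3 in Mel+MSC and 81.5, 81.8 and 76.7 in MSC+Mel. Melphalan 2 was low and the remaining libraries lay close together. Ndufs1 was at 0.47 ± 0.20 (SE, limma adjusted p = 0.35) in Mel+MSC against Melphalan, with no overlap. Ndufa10, an accessory subunit of the membrane arm, had a narrow range too. The level of Ndufa10 was 81.6, 90.5 and 100.2 FPKM in Control, 78.6, 63.7 and 88.7 in Melphalan, 114, 112 and 84.2 in Mel+MSC and 113, 115 and 104 in MSC+Mel. MSC+Mel lay above both Melphalan and Control, and the change against Melphalan was 0.53 ± 0.18 (SE, limma adjusted p = 0.14), that of Mel+MSC against Melphalan 0.42 ± 0.18 (SE, limma adjusted p = 0.356).

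The accessory subunits of complex I held the members with the smallest p in comparisons with MSC+Mel. Ndufb3, in the membrane arm, had the smallest p between MSC+Mel and Melphalan. Ndufb3 stood at 65.2, 51.3 and 76.3 FPKM in the Control libraries, 91.98, 85.5 and 110.4 in Melphalan, 117, 69.6 and 42.2 in Mel+MSC and 42.6, 36.8 and 39.5 in MSC+Mel. Melphalan lay above Control and MSC+Mel without overlap, and Mel+MSC 3 was as low as the MSC+Mel libraries. The change from Melphalan to MSC+Mel was -1.25 ± 0.30 (SE, limma adjusted p = 0.0681), and that from Mel+MSC -0.81 ± 0.30 (SE, limma adjusted p = 0.36). Ndufa8, which sits on the intermembrane side, was lower by value in MSC+Mel than in any other library. The level of Ndufa8 was 104, 101 and 125 FPKM in Control, 128, 83.1 and 111 in Melphalan, 163, 116 and 86.7 in Mel+MSC and 66.9, 62.02 and 60.7 in MSC+Mel. Its change was -0.89 ± 0.24 (SE, limma adjusted p = 0.249) against Mel+MSC and -0.78 ± 0.24 (SE, limma adjusted p = 0.248) against Control. Ndufa13, also known as GRIM-19, is a membrane arm accessory subunit. Control libraries had 59.8, 67.1 and 70.3 FPKM of Ndufa13, Melphalan libraries 83.3, 47.01 and 79.05, Mel+MSC libraries 86.7, 64.6 and 37.6 and MSC+Mel libraries 37.6, 30.5 and 37.7. MSC+Mel lay below Control and Melphalan, and Mel+MSC 3 lay at the MSC+Mel level. The changes were -0.93 ± 0.29 (SE, limma adjusted p = 0.115) against Melphalan and -0.88 ± 0.29 (SE, limma adjusted p = 0.285) against Control. The highest mean level in complex I was that of Ndufa6 (304 FPKM over all libraries) and the lowest that of Ndufb4 (35.4), both accessory subunits. Ndufa6 ran from 149 in Mel+MSC 3 to 503 in Mel+MSC 1, and Ndufb4 from 17.6 to 58.1 in the same libraries.

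Complex II, succinate dehydrogenase, links the chain to the citric acid cycle and is encoded wholly in the nucleus. Sdha stood at 195, 202 and 264 FPKM in the Control libraries, 290.4, 150.5 and 232 in Melphalan, 312, 223 and 243 in Mel+MSC and 192, 188 and 189.8 in MSC+Mel. Sdha is the flavoprotein that oxidises succinate. The level of Sdhb was 412, 357 and 465 FPKM in Control, 423, 224 and 358 in Melphalan, 414, 356 and 357 in Mel+MSC and 330.1, 303 and 346 in MSC+Mel. Sdhb carries the iron-sulfur clusters, and in both genes Melphalan 2 was the lowest library. Control libraries had 296, 308 and 375 FPKM of Sdhc, Melphalan libraries 417, 202 and 389, Mel+MSC libraries 409, 355 and 298 and MSC+Mel libraries 295, 288 and 289. Sdhc anchors the enzyme in the membrane together with Sdhd. Sdhd stood at 262, 309.7 and 401 FPKM in the Control libraries, 455, 279.6 and 471 in Melphalan, 642, 387 and 237 in Mel+MSC and 257, 253 and 255 in MSC+Mel. For each of the 4 genes MSC+Mel lay below Control with no overlap, and the changes ran from -0.33 to -0.16 (limma adjusted p = 0.659 to 0.875). Over all genes 14.4% lay below Control in this way. The changes of Sdhb and Sdhd were about as large as the pooled spread of 0.31.

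Complex III moves electrons from ubiquinol to cytochrome c. Uqcrh, the hinge protein, had the highest mean level in the complex (1154 FPKM). The level of Uqcrh was 598, 794 and 1423 FPKM in Control, 1692, 1028 and 1567 in Melphalan, 2741, 1724 and 469 in Mel+MSC and 703, 621 and 490.4 in MSC+Mel. Uqcrh spanned 469 to 2741 FPKM within Mel+MSC alone, and MSC+Mel lay below Melphalan (-1.22 ± 0.56 SE, limma adjusted p = 0.228). Uqcr11, a small subunit with the lowest mean (184 FPKM), ran from 42.2 in Mel+MSC 3 to 427 in Mel+MSC 1. All 5 small subunits (Uqcr10, Uqcr11, Uqcrb, Uqcrh and Uqcrq) were lower in MSC+Mel than in Melphalan without overlap, beside 17.2% of all genes, with a median change of -0.99. The 2 core subunits differed. Uqcrc1 had a change of -0.06 (limma adjusted p = 0.905) against Melphalan and lay below Control without overlap, beside 14.4% of all genes. Uqcrc2 had a change of the opposite sign to that of the small subunits. Control libraries had 256, 238 and 266 FPKM of Uqcrc2, Melphalan libraries 248, 148 and 224, Mel+MSC libraries 287, 255 and 256 and MSC+Mel libraries 279, 268 and 276. MSC+Mel lay above Control and Melphalan, and its change against Melphalan was 0.44 ± 0.20 (SE, limma adjusted p = 0.233).

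Complex IV, cytochrome c oxidase, has ubiquitous subunits and isoforms tied to tissues or conditions. The ubiquitous ones dominated. Cox6a1, the general form of subunit 6A, had the highest mean level in the complex (1354 FPKM). Cox6a1 stood at 1193, 1239 and 1622 FPKM in the Control libraries, 1612, 1092 and 1865 in Melphalan, 2080, 1598 and 729 in Mel+MSC and 1125, 1015 and 1079 in MSC+Mel. Cox6a2, the heart and skeletal muscle form, reached at most 1.12 FPKM. Cox4i1, the general form of subunit 4, was similar in level. The level of Cox4i1 was 874, 1161 and 1643 FPKM in Control, 1835, 1071 and 1765 in Melphalan, 2369, 1712 and 633 in Mel+MSC and 846, 756 and 779 in MSC+Mel. MSC+Mel lay below the Control and Melphalan libraries, and Mel+MSC 3 lower still. Cox4i2, its lung and hypoxia form, reached 2.35, 1.28 and 0.831 FPKM in the Control libraries, 1.27, 1.03 and 1.04 in Melphalan, 0.464, 0.365 and 0 in Mel+MSC, and 0.417, 0.298 and 0.476 in MSC+Mel. Each library of the 2 combined groups thus lay below each Control and Melphalan library, at levels near the filter. The Cox4i2 changes were -0.94 ± 0.25 (SE, limma adjusted p = 0.645) for Mel+MSC and -0.79 ± 0.25 (SE, limma adjusted p = 0.261) for MSC+Mel against Control, and -0.74 ± 0.25 (SE, limma adjusted p = 0.248) for Mel+MSC against Melphalan.

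Subunit 6B has a general form, Cox6b1, and a testis form, Cox6b2. Control libraries had 241, 403 and 698 FPKM of Cox6b1, Melphalan libraries 634, 551 and 950, Mel+MSC libraries 1176, 858 and 111 and MSC+Mel libraries 380.2, 364 and 299. Cox6b2 was rare beside it. Cox6b2 stood at 1.41, 2.54 and 3.18 FPKM in the Control libraries, 5.79, 8.202 and 19.3 in Melphalan, 3.76, 10.3 and 0.994 in Mel+MSC and 3.06, 5.53 and 4.56 in MSC+Mel. Melphalan lay above Control for Cox6b2 without overlap (1.72 ± 0.56 SE, limma adjusted p = 0.141). Subunit 7A has a general form, Cox7a2, a heart and muscle form, Cox7a1, and the related Cox7a2l, which helps assemble supercomplexes. The level of Cox7a1 was 70.7, 123 and 279 FPKM in Control, 273, 277 and 406 in Melphalan, 294, 214 and 20.4 in Mel+MSC and 68.9, 87.2 and 83.8 in MSC+Mel. Melphalan lay above MSC+Mel without overlap (-1.96 ± 0.81 SE, limma adjusted p = 0.189), and Mel+MSC 3 held the lowest value. Skeletal muscle markers summed to 8.11 to 26.9 FPKM over all libraries, and Atp2a1, Myh1, Myh4, Tnni2 and Tnnt3 were below the filter. Of the 3 tested, limma called 1 higher in Melphalan against Control (2.54, adjusted p = 0.0224), beside 1.33% of all genes called. In MSC+Mel against Control it also called 1 higher (2.98, limma adjusted p = 0.0358), beside 0.171%. The other 2 were below 0 in both, down to -1.22 and -1.16. Adipocyte markers summed to 22.5 to 76.6 FPKM except in Melphalan 1 (299), and Cidea, Lep and Ucp1 were below the filter. Control libraries had 503, 563 and 545 FPKM of Cox7a2, Melphalan libraries 705, 319.8 and 619, Mel+MSC libraries 732, 616 and 353 and MSC+Mel libraries 407, 326 and 358. Cox7a2 thus varied less than Cox7a1 and was lowest in Melphalan 2. Cox7a2l stood at 219, 181 and 244 FPKM in the Control libraries, 490.3, 182 and 209 in Melphalan, 327, 268 and 201 in Mel+MSC and 187, 164 and 168 in MSC+Mel. Melphalan 1 was the high library for Cox7a2l, and MSC+Mel lay below Mel+MSC without overlap.

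Cox8a, the general form of subunit 8, also ranked among the abundant members. The level of Cox8a was 813, 766 and 922 FPKM in Control, 1105, 644 and 944 in Melphalan, 985, 776 and 434 in Mel+MSC and 529.9, 481 and 598 in MSC+Mel. MSC+Mel lay below the Control and Melphalan libraries, and Cox8b, the heart and muscle form, reached at most 0.856 FPKM. Ndufa4, named for complex I but a subunit of complex IV, followed the general subunits. Control libraries had 420.3, 589 and 731 FPKM of Ndufa4, Melphalan libraries 719, 422 and 837, Mel+MSC libraries 1148, 925 and 323 and MSC+Mel libraries 479, 414 and 434. Mel+MSC 3 was the lowest library and Mel+MSC 1 the highest. Ndufa4l2, a hypoxia-induced relative, was the lowest member of the complex (mean 0.612 FPKM) and ran from 0.150 in Mel+MSC 3 to 1.22 in Melphalan 3. Its groups overlapped at these levels except for Mel+MSC below Melphalan. Cox6c2, the pseudogene, was listed at 0 in 8 libraries and at 6.20 in Control 1, 5.37 and 6.12 in Melphalan 2 and 3, and 4.72 in Mel+MSC 2. Reads of Cox6c could be split with it, and no direction is drawn.

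Complex V joins a catalytic F1 head to a proton channel in the membrane. Atp5b, the catalytic beta subunit (chromosome 10, 128083273 to 128090391, plus strand), was the most abundant member with a mean of 1968 FPKM. Atp5b stood at 2297, 2218 and 2598 FPKM in the Control libraries, 2046, 1242 and 1714 in Melphalan, 1911, 1847 and 1985 in Mel+MSC and 1767, 1703 and 2285 in MSC+Mel. Control lay above Melphalan without overlap (-0.53 ± 0.26 SE, limma adjusted p = 0.31). Mel+MSC 3 was no lower than the other Mel+MSC libraries. Atp5k, the small e subunit of the membrane part (chromosome 5, 108433244 to 108434448, minus strand), was chosen after its values were seen. The level of Atp5k was 27.7, 65.1 and 153 FPKM in Control, 74.2, 221 and 339.8 in Melphalan, 471, 323 and 4.76 in Mel+MSC and 78.9, 101 and 35.1 in MSC+Mel. It ran from 4.76 to 471 FPKM, 98.9-fold, and both ends were Mel+MSC libraries. Groups overlapped in all 6 comparisons, and the fitted change from Melphalan to MSC+Mel was -1.43 ± 1.37 (SE, limma adjusted p = 0.558). A second entry named Atp5o, at chromosome 16, 91684398 to 91926982 on the minus strand, overlaps the main Atp5o gene and was listed between 0 and 1.16 FPKM, while the main entry ran from 272 to 788.

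**Figure D2:**
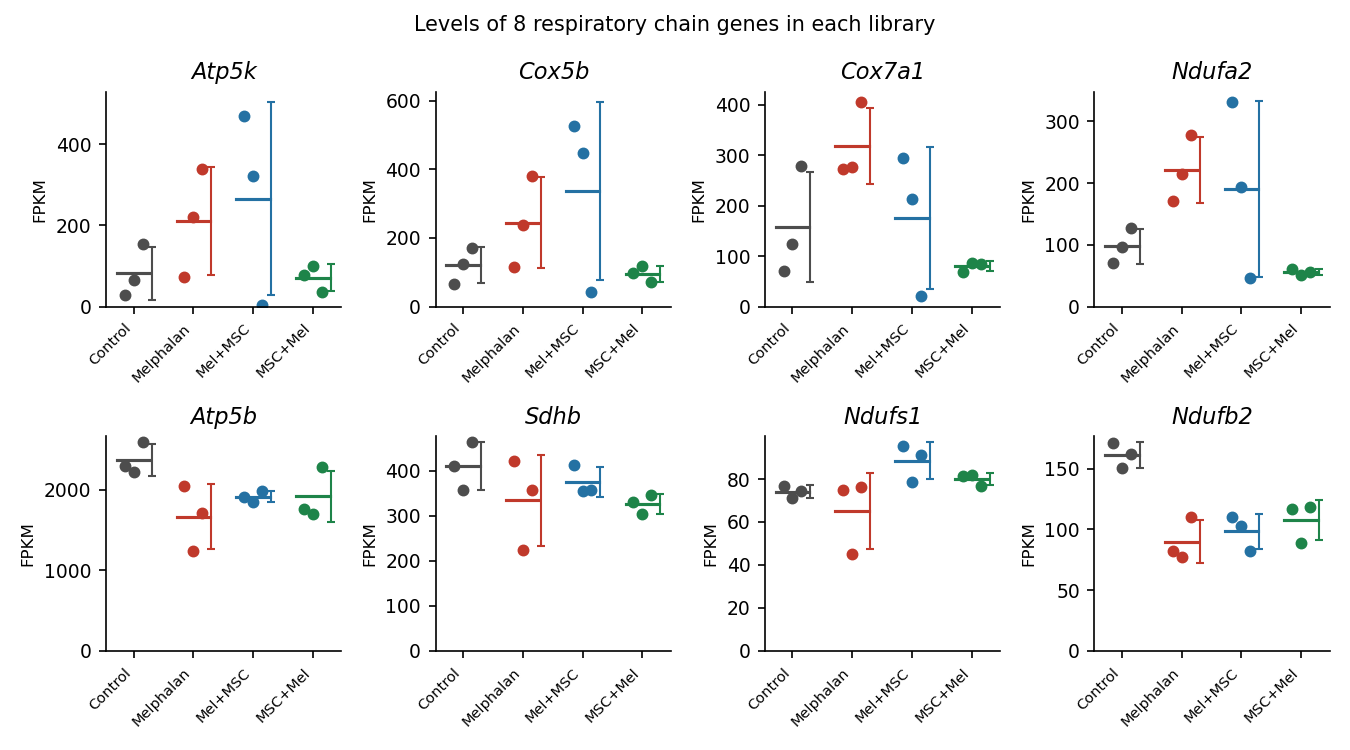
FPKM (vertical axis, from 0) of 8 members in the 3 libraries of each group (points), with the group mean (horizontal line) and SD (bar, n = 3). In the upper row Mel+MSC holds the lowest library and spans a wide range, from 4.76 to 471 FPKM for Atp5k. For Cox7a1 the highest library is Melphalan 3 (406 FPKM). In the lower row the libraries lie closer, from 44.9 to 95.6 FPKM for Ndufs1.

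The 8 genes of that plot were chosen after their values were seen, to set short transcripts in the upper row (Atp5k, Cox5b, Cox7a1 and Ndufa2) beside longer ones in the lower row (Atp5b, Sdhb, Ndufs1 and Ndufb2). Transcript length was the median over the transcripts of a gene marked as principal in GENCODE M21, found for 81 members. Which transcripts were expressed in these libraries was not tested. By this measure Ndufb2 has 2413 nt with a coding length of 315 nt, beside 865 and 387 nt for Cox5b. Of the 23 members that varied 5-fold or more between libraries, 20 had a transcript under 1000 nt, and of the 18 that varied less than 2.5-fold, 15 had one of 1000 nt or more. Across these 81 genes, which share their libraries and are not independent, the Spearman correlation of transcript length with the SD between libraries was -0.63.

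The direction of the relation differed between libraries. Mel+MSC 3 had low values for short members, with a Spearman correlation of 0.67 between length and the deviation from the gene's mean over 12 libraries. In Melphalan 2 it was -0.57, in Melphalan 3 -0.56, in Mel+MSC 2 -0.53 and in Mel+MSC 1 -0.48. The MSC+Mel libraries gave 0.45, 0.39 and 0.48. All other tested genes with a length gave the same sign in each library. Their values were weaker than those of the members in 11 libraries, among them 0.50 in Mel+MSC 3 and 0.33 in MSC+Mel 3, while Control 2 had -0.14 beside -0.01 in the members. Members under 600 nt (25 genes) had a median deviation of -1.19 in Mel+MSC 3 and 0.99 in Mel+MSC 1, and members of 2000 nt or more (7 genes) of -0.11 and 0.33. Other genes under 600 nt with a mean level of 5 or more on the log2 scale (104 genes) had -0.95 and 0.57. Over all levels the other genes under 600 nt (381 genes) had -0.88 in Mel+MSC 3 but -0.64 in Mel+MSC 1, where the sign was opposite to that of the members. Whether RNA quality or library preparation played a part was not tested.

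**Figure D3:**
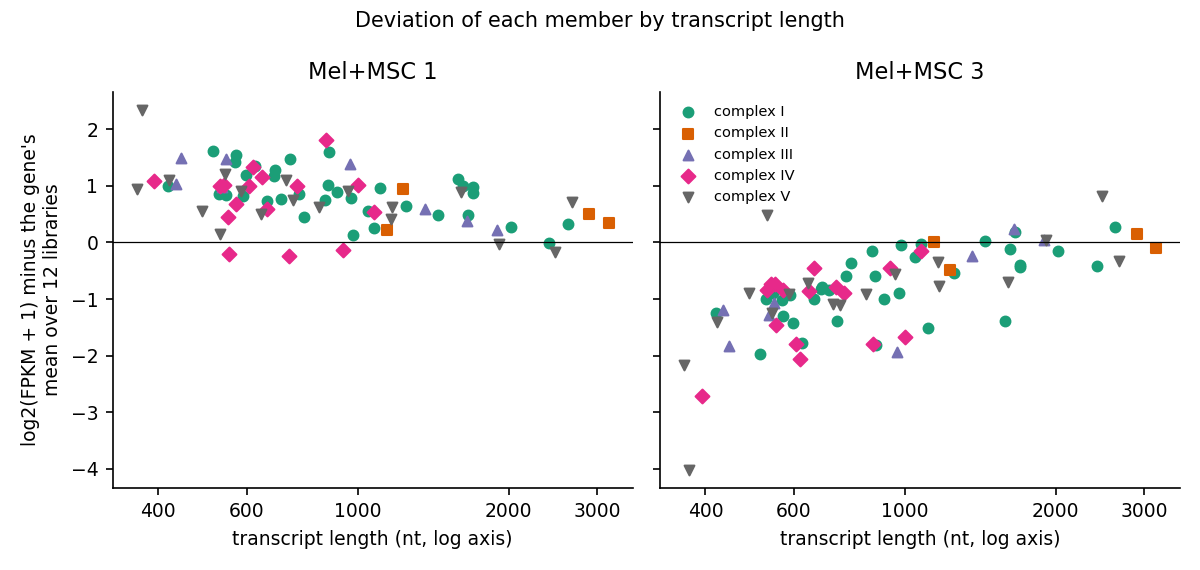
Deviation of each member from its own mean over 12 libraries (vertical axis, log2 scale) against transcript length in nt (horizontal log axis) in Mel+MSC 1 and Mel+MSC 3, 1 symbol per complex. In Mel+MSC 3 short members lie lowest, down to Atp5k, and those of 2000 nt or more lie near 0 (median -0.11).

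**Figure D4:**
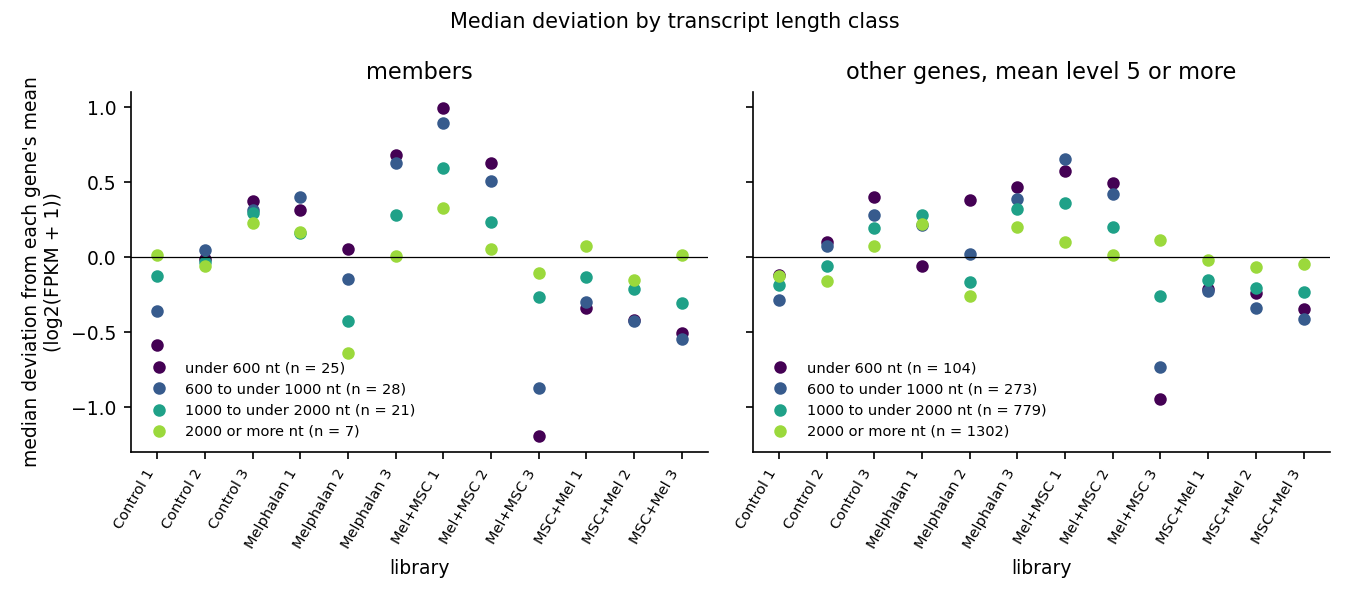
Median deviation from each gene's mean (vertical axis, log2 scale) in each library (horizontal axis) for 4 transcript length classes, members at left and other genes with a mean level of 5 or more at right. The classes lie farthest apart in Mel+MSC 3, from -1.19 to -0.11 in members and from -0.95 to 0.11 in other genes.

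In Mel+MSC 3 the length classes had the same order in members and in other genes, with the shortest transcripts lowest. When the trend of the other genes on length and level was taken off each library (length centring, chosen after seeing the data), the members' median deviation in Mel+MSC 3 went from -0.84 to 0.02. In Mel+MSC 1 it went from 0.85 to 0.44, and in Melphalan 1 it was 0.49, the highest of the 12. MSC+Mel stood at -0.12, -0.24 and -0.24 after centring, and Control at -0.10, -0.05 and -0.03.

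Between MSC+Mel and Melphalan limma called 0 members beside 1.24% of all genes, and 13 (15.9%) had an unadjusted p under 0.05 beside 22.2% of all genes. The members' median change was -0.61 beside -0.05 for all genes, with 11 of 82 above 0 (13.4%) beside 45.9% of all genes. This median was -0.25 with quantile normalization and -0.28 after length centring. In 41 members (50%) every MSC+Mel library lay below every Melphalan library, beside 17.2% of all genes, and in 3 members above, beside 16.3%. By length the 41 were 19 of 25 members under 600 nt, 17 of 28 from 600 to under 1000 nt, 5 of 21 from 1000 to under 2000 nt and 0 of 7 above. By complex the median change was -0.79 in complex IV, -0.76 in complex III, -0.63 in complex I, -0.41 in complex V and -0.16 in complex II, the last being 0.24 with quantile normalization. Enterocyte markers summed to 32900 to 68900 FPKM in Melphalan and 19600 to 23300 in MSC+Mel, and crypt cell markers to 48.4 to 91.2 and 395 to 441. limma called 4 of the 7 tested crypt cell markers higher in MSC+Mel beside 0.817% of all genes, and 6 lay higher without overlap beside 16.3%. The 10 enterocyte markers had a median change of -0.73, with 3 above 0 and 5 lower in MSC+Mel without overlap. The 8 smooth muscle markers summed to 317 to 455 FPKM in Melphalan and 224 to 271 in MSC+Mel, with a median change of -0.50, and 5 of them lay lower in MSC+Mel without overlap. Their part in the members' change was not tested.

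The count of members called between MSC+Mel and Melphalan depended on the fit. With these 2 groups alone limma called 6 members lower, beside 2.51% of all genes called lower, namely Ndufa2, Cox7a1, Ndufb3, Ndufa1, Ndufs6 and Ndufb7. With Mel+MSC 3 left out of the shared spread it called 7 lower, beside 3.44% of all genes, the first 5 of these with Ndufa13 and Ndufb8. After length centring limma called Ndufa2 (-1.72, adjusted p = 0.0302) and Ndufb3 (-0.96, adjusted p = 0.0459) lower beside 1.25% of the 11980 genes with a length. It called Ndufa10 (0.81, limma adjusted p = 0.018) and Uqcrc2 (0.80, adjusted p = 0.0312) higher beside 2.37%. With quantile normalization limma called Ndufa10 alone, higher (adjusted p = 0.0225), beside 1.07% of all genes called higher. Ndufa1 and Ndufs6, accessory subunits of complex I, are named because these fits called them. Control libraries had 177, 205 and 245 FPKM of Ndufa1, Melphalan libraries 285, 230.3 and 321, Mel+MSC libraries 377, 223 and 78.9 and MSC+Mel libraries 120.4, 118 and 118. Ndufs6 stood at 42.2, 57.4 and 71.5 FPKM in the Control libraries, 75.4, 97.9 and 126 in Melphalan, 174, 99.9 and 31.3 in Mel+MSC and 35.8, 39.3 and 37.9 in MSC+Mel. In both genes each MSC+Mel library lay below each Control and Melphalan library, and Mel+MSC 3 lay lower still.

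**Figure D5:**
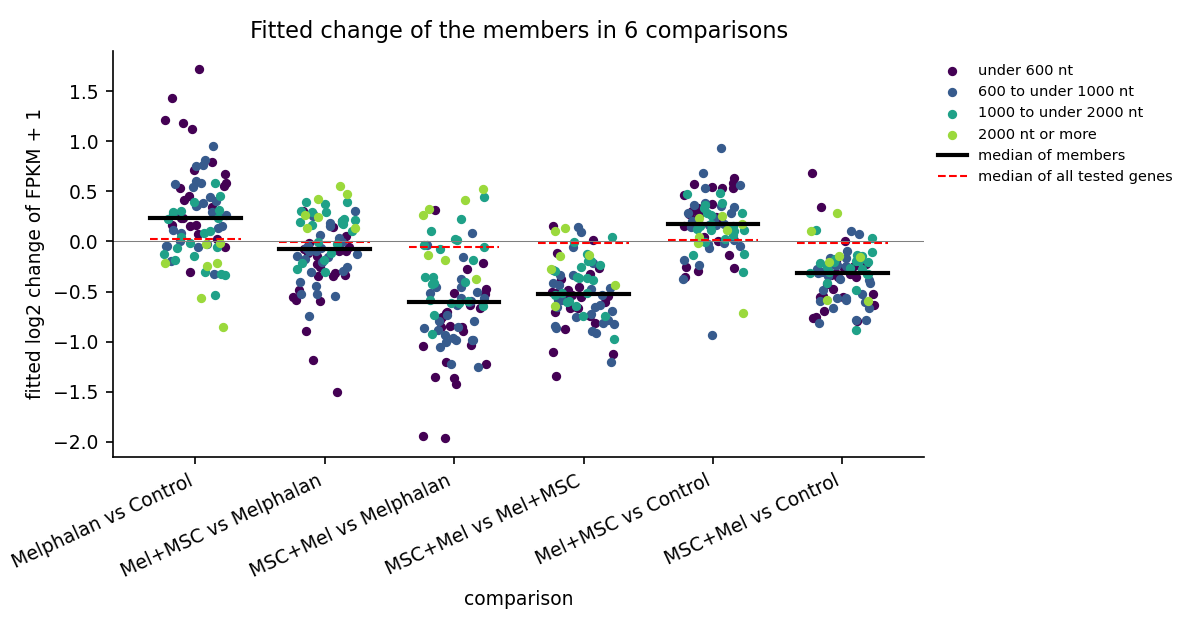
Fitted log2 change of FPKM + 1 (vertical axis) of 81 members (points, coloured by transcript length class) in the 6 comparisons (horizontal axis), with the median of all 82 members (black line) and of all tested genes (dashed line). Against Melphalan, MSC+Mel members have a median of -0.61, and those under 600 nt lie lowest.

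The values of the Mel+MSC group turned on Mel+MSC 3 and Mel+MSC 1. Against Melphalan limma called 0 members beside 0.156% of all genes, with 3 (3.66%) at an unadjusted p under 0.05 beside 13.6%. The median change was -0.07 beside -0.01 for all genes, with 32 above 0 (39%) beside 49% of all genes. Mel+MSC lay wholly above Melphalan in 2 members beside 8.37% of all genes, and wholly below in 2 beside 5.91%. Without Mel+MSC 3 the median was 0.43 with 75 above 0, without Mel+MSC 1 it was -0.43, and after length centring of all libraries it was 0.10. Against Control limma called 0 members beside 0% of all genes, with 2 (2.44%) at an unadjusted p under 0.05 beside 5.4%. Mel+MSC lay wholly above Control in 1 member beside 5.39% of all genes, and wholly below in 3 beside 5.06%. Of the 82 changes 62 were above 0 (75.6%) beside 52.1% of all genes, and the median of 0.18 became 0.64 without Mel+MSC 3 and -0.13 without Mel+MSC 1. It was 0.01 with quantile normalization. No direction is therefore drawn for the Mel+MSC members against Melphalan or Control. These comparisons share libraries with the others, so their values are not independent of them.

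Between MSC+Mel and Mel+MSC limma called 0 members beside 0.00778% of all genes, and 9 (11%) had an unadjusted p under 0.05 beside 12.2% of all genes. The median change was -0.52 beside -0.01 for all genes, with 7 of 82 above 0 (8.54%) beside 48.6% of all genes, and it stayed below 0 with quantile normalization (-0.21) and after length centring (-0.36). In 9 members (11%) MSC+Mel lay wholly below Mel+MSC, beside 11.8% of all genes. Without Mel+MSC 3 limma called 19 members lower and 0 higher, beside 2.59% of all genes called lower, and the median was -1.04, whereas it was -0.18 without Mel+MSC 1. Among the 19 were Ndufa1, Ndufa2, Ndufa5, Ndufa7, Ndufa8, Ndufb3, Ndufb6, Ndufb8, Ndufc2, Ndufs6 and Ndufs7 of complex I, Uqcr10 and Uqcrh of complex III, Cox5a and Cox5b of complex IV, and Atp5e, Atp5g2 and Atp5j2 of complex V. The transcripts of these named genes were under 1000 nt. Cox5b had the largest change of the 19 (-2.37, limma adjusted p = 0.038). The level of Cox5b was 66.6, 125 and 171 FPKM in Control, 116, 237 and 380 in Melphalan, 526, 446 and 42.1 in Mel+MSC and 96.5, 117 and 71.2 in MSC+Mel. Mel+MSC 1 and 2 were high and Mel+MSC 3 lay below every MSC+Mel library. With length centring and without Mel+MSC 3, limma called Ndufa2 (-1.87, adjusted p = 0.0436) and Ndufs6 (-1.59, adjusted p = 0.0498) lower, beside 0.359% of the 11980 genes with a length.

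Against Control, MSC+Mel had a median change of -0.32 beside -0.01 for all genes, with 9 of 82 members above 0 (11%) beside 48.8% of all genes. limma called 0 members beside 0.171% of all genes, and 4 (4.88%) had an unadjusted p under 0.05 beside 11.7%. In 29 members (35.4%) every MSC+Mel library lay below every Control library, beside 14.4% of all genes. After length centring the median was -0.08 with 25 members above 0. The median without Control 1 was -0.56 and that without Control 3 was -0.17. The 8 smooth muscle markers summed to 330 to 570 FPKM in Control and had a median change of -0.63 in MSC+Mel, with 6 of them lower without overlap. Red cell markers, of which 4 of 5 were tested, summed to 27.5 to 113 FPKM in Control and 0 to 0.337 in MSC+Mel. All 4 lay lower without overlap. This was not particular to MSC+Mel, as the sums were 0 to 13.7 in Melphalan and 0 to 2.34 in Mel+MSC. There too all 4 lay below Control without overlap. The 10 enterocyte markers had a median change of 0.48, with 4 higher without overlap. The part of these shifts in the members' change was not tested.

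The other genes of respiration were read from lists of the same pathway. Of 13 genes encoded by mitochondrial DNA 9 were tested and 0 were called in any comparison. mt-Co1, mt-Co3, mt-Atp6 and mt-Atp8 were listed at 0 in every library. mt-Nd4 and mt-Nd4l were listed at 0 in Control 1, Control 3, Melphalan 1 and Mel+MSC 3, and mt-Co2 in Control 3 and Melphalan 1. No direction is therefore drawn for the genes encoded by mitochondrial DNA. Control libraries had 20280, 14670 and 36090 FPKM of mt-Cytb, Melphalan libraries 41630, 15540 and 29320, Mel+MSC libraries 31670, 14740 and 19010 and MSC+Mel libraries 16900, 12500 and 12680. mt-Cytb, which encodes the cytochrome b of complex III, was highest in Melphalan 1 and was not low in Mel+MSC 3. Among 17 regulators of mitochondrial genes 0 were called. In Melphalan against Control their median change was -0.335, with 15 below 0 and 2 above. Of the 17, 7 (41.2%) lay lower without overlap beside 10.7% of all genes, and 1 higher beside 8.82%. In MSC+Mel against Melphalan the median was 0.418, with 13 above 0 and 4 below. There 5 (29.4%) lay higher without overlap beside 16.3% of all genes, and 1 lower beside 17.2%. Ppargc1a is a coactivator of mitochondrial biogenesis. Ppargc1a stood at 11.98, 12.1 and 14.8 FPKM in the Control libraries, 7.87, 10.8 and 11.9 in Melphalan, 12.8, 9.52 and 20.1 in Mel+MSC and 14.4, 15.6 and 19.2 in MSC+Mel. Melphalan lay below Control without overlap (-0.34 ± 0.25 SE, limma adjusted p = 0.507). Esrra, the receptor ERR alpha, had a change of the opposite sign. The level of Esrra was 78.7, 72.6 and 105 FPKM in Control, 123, 107 and 164 in Melphalan, 151, 111 and 82.1 in Mel+MSC and 88.2, 84.9 and 77.3 in MSC+Mel. Melphalan lay above Control and MSC+Mel without overlap (0.61 ± 0.25 SE, limma adjusted p = 0.225, and -0.63 ± 0.25 SE, limma adjusted p = 0.177 for MSC+Mel against Melphalan). Tfam, which packs and transcribes mitochondrial DNA, was lower by value in Melphalan. Control libraries had 36.8, 50.2 and 41.9 FPKM of Tfam, Melphalan libraries 30.3, 22.2 and 21.3, Mel+MSC libraries 43.9, 30.02 and 28.1 and MSC+Mel libraries 28.9, 32.1 and 43.03. The change from Control was -0.79 ± 0.23 (SE, limma adjusted p = 0.108). Nrf1 stood at 9, 9.91 and 6.19 FPKM in the Control libraries, 7.77, 8.44 and 6.38 in Melphalan, 8.77, 6.75 and 13.5 in Mel+MSC and 11.8, 8.18 and 9.02 in MSC+Mel. Nrf1 overlapped between all groups.

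Some genes of the mitochondrial ribosome and of assembly were called. Among 78 mitochondrial ribosomal protein genes 3 fell in Melphalan against Control, namely Mrps18b (-0.91, limma adjusted p = 0.0394), Mrps22 (-0.97, adjusted p = 0.0349) and Mrpl3 (-0.96, adjusted p = 0.0352), and 0 rose, beside 0.833% of all genes called lower. In MSC+Mel against Melphalan, which shares the Melphalan libraries, Mrps18b, Mrps22 and Mrpl3 rose (0.96, 1.09 and 1.12, limma adjusted p = 0.0373, 0.0294 and 0.0273) and 0 fell, beside 0.817% of all genes called higher. The level of Mrps22 was 20.5, 26.4 and 17.5 FPKM in Control, 10.9, 8.38 and 12.02 in Melphalan, 17.2, 21.9 and 20.2 in Mel+MSC and 22.8, 23.6 and 22.9 in MSC+Mel. Mrps22 belongs to the small subunit of the mitochondrial ribosome, and each Melphalan library lay below each other library. The median change of the 78 was -0.14 in both comparisons. Of 21 complex IV assembly genes Lrpprc, which stabilises mitochondrial messenger RNA, rose in MSC+Mel against Melphalan (1.06 ± 0.21 SE, limma adjusted p = 0.038), and of 6 complex III assembly genes Bcs1l, which inserts the Rieske protein, rose (0.82 ± 0.17 SE, limma adjusted p = 0.0432). Control libraries had 28.6, 26.3 and 21.7 FPKM of Lrpprc, Melphalan libraries 15.01, 10.5 and 13.1, Mel+MSC libraries 21.4, 20.3 and 33.2 and MSC+Mel libraries 26.6, 27.7 and 28.7. Melphalan was the low group without overlap. Many of these calls ended when single libraries were left out. All 3 in Melphalan against Control stayed without Control 3 (largest limma adjusted p = 0.0279). All 5 in MSC+Mel against Melphalan stayed without Melphalan 2 (largest limma adjusted p = 0.0499). In Melphalan against Control the largest limma adjusted p of the 3 genes was 0.169 without Control 1, 0.18 without Control 2, 0.0853 without Melphalan 1 and 0.115 without Melphalan 3, and without Melphalan 2 only the call of Mrps18b ended (adjusted p = 0.0514). In MSC+Mel against Melphalan the largest limma adjusted p of the 5 genes was 0.0971 without Melphalan 1, 0.111 without Melphalan 3, and 0.172, 0.18 and 0.157 without MSC+Mel 1, 2 and 3. When libraries were blocked by number the 3 calls in Melphalan against Control ended (limma adjusted p = 0.0608 to 0.0804). Without a filter on low values they also ended (limma adjusted p = 0.0593 to 0.0653), as did those of Mrps18b (0.0621), Lrpprc (0.0712) and Bcs1l (0.0819) in MSC+Mel against Melphalan. With Melphalan and Control alone in the fit the limma adjusted p in Melphalan against Control was 0.208 to 0.212. With quantile normalization that of Bcs1l was 0.0506. Under single left-out libraries the changes stayed between -1.14 and -0.82 in the first comparison and between 0.74 and 1.21 in the second. In the lists of other complex I, II and V assembly factors (15, 4 and 3 genes), other subunits (4 genes), the citric acid cycle and pyruvate dehydrogenase (16 genes) and glycolysis (15 genes) 0 were called in any comparison.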

How the data were processed

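RNA of small intestine from 3 libraries in each of 4 groups was extracted with a QIAamp AllPrep RNA Mini Kit and made into TruSeq libraries, per the labels' protocols. The submitters' processing notes name STAR, Cufflinks and Cuffnorm, without versions, and the builds mm10 and GRCm38. The deposited values are FPKM per gene, as the authors normalized them across the 12 libraries, and 0 columns were left unmapped. FPKM carry no depth, so no counting error can be given.

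Values were taken as log2(FPKM + 1), and genes with at least 1 FPKM in 3 or more libraries were kept. limma 3.58.1 (R 4.3.3) fitted 4 group means with an intensity trend and 8 residual degrees of freedom, with adjusted p-values over 12847 genes. On simulated data for Melphalan against Control over those genes, 6%, 40%, 88% and 98% of 50 genes each were called at true log2 changes of 0.5, 1, 2 and 3. The simulated noise was independent between genes and equally wide in all groups, without the shifts that genes of a library share in the data. The changed genes were drawn from all genes tested, so these shares are not the sensitivity for the members. Gene coordinates and transcript lengths came from GENCODE M21, which held 99.4% of the gene identifiers, and promoters from RefSeq. Python 3.11.15 and matplotlib 3.10.9 served for the plots.

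The members and the lists were chosen with earlier results of these data known, as were the tests. Named members were the 3 with the smallest p in each comparison, the most and least abundant of each complex, subunits with tissue forms and all of complex II. A gene that this rule names is not reported here. From the other lists, called genes and 4 regulators were named. Further members, named after their values were seen, are those called by an alternative fit, Uqcrc2, Cox5b, Atp5k and those in the plot of selected members. Libraries of Control and Melphalan with the same number deviated together (correlations of deviations from the group means 0.124, 0.233 and 0.184), so the blocked values stand beside that comparison; this pairing comes from the data and not from the labels. The alternatives were another pseudocount, other filters, quantile normalization, median-of-ratios rescaling, the 2 groups alone, a replicate block and leaving out each library. Length centring, length centring without Mel+MSC 3, and leaving Mel+MSC 3 out of the shared spread were added after seeing the data. The length-centred fits tested and adjusted over the 11980 genes with a transcript length, so Cox6c2, which has none, dropped out.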

Additional observations from a re-analysis of the deposited data

How the results depend on the processing

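limma called 0 members in all 6 comparisons under the other pseudocount, the other filters, median-of-ratios rescaling and the replicate block. The count of members called rose from 0 under several settings. Between Melphalan and Control it was 1 with quantile normalization, 1 with Mel+MSC 3 out of the shared spread and 1 after length centring. Between MSC+Mel and Melphalan it was 1 with quantile normalization, 6 with the 2 groups alone, 7 with Mel+MSC 3 out of the shared spread and 4 after length centring. Between MSC+Mel and Mel+MSC it was 2 with length centring and without Mel+MSC 3. The cause of these shifts was not tested.

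With 1 library of the compared groups left out at a time, the count of called members ran from 0 to 19 between MSC+Mel and Mel+MSC and was 0 in the 5 other comparisons. The members' median change ran from 0.05 to 0.45 in Melphalan against Control, from -0.43 to 0.43 in Mel+MSC against Melphalan, from -0.81 to -0.47 in MSC+Mel against Melphalan and from -1.04 to -0.18 in MSC+Mel against Mel+MSC. It ran from -0.13 to 0.64 in Mel+MSC against Control and from -0.56 to -0.17 in MSC+Mel against Control. Of the medians by complex, 437 moved by less than the spread between libraries and 13 by more. That spread was 0.31 to 0.58 by complex, larger than many of the medians themselves. A median could thus change sign and still be counted among the 437, so the tally is no measure of stability.

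The libraries of the groups carry the numbers 1 to 3. Over 18 pairs of libraries with the same number the correlation of deviations from the group means ran from -0.37 to 0.40, with 7 pairs over 0.1. All 3 pairs were over 0.1 between Control and Melphalan only, so the numbers were not taken to pair the libraries of the other comparisons. With the replicate block limma called 0 members in every comparison, and the calls of 5 mitochondrial ribosome and assembly genes in MSC+Mel against Melphalan ended (adjusted p = 0.0674 to 0.081). Over all genes it called 73 in Melphalan against Control, 3 in Mel+MSC against Melphalan, 20 in MSC+Mel against Melphalan, 0 in MSC+Mel against Mel+MSC, 1 in Mel+MSC against Control and 5 in MSC+Mel against Control. Without the block these counts were 171, 20, 159, 1, 0 and 22. Without counts the depth of a value is unknown. The fit shares 1 spread over the groups, and the pooled SD of 0.49 is widened by Mel+MSC. With 3 libraries a group, changes of the size of most member medians are hard to detect in that fit.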
